A study of Homo sapiens with 8 samples.

Results

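The genes examined here are 10 genes of the ATF4 and CHOP stress response, chosen by name: ATF4, ATF3, ATF5, DDIT3 (which encodes CHOP), DDIT4, TRIB3, ASNS, SESN2, CHAC1 and CEBPB. Their members in the data were the rows whose RefSeq transcript identifier belongs to one of these genes, which gave 19 of 24812 listed transcripts and all 10 genes of 14528 that could be named. SQ20B is an established cell line from a human head and neck squamous cell carcinoma, grown in both conditions in high-glucose medium with serum. Its poly(A) RNA was profiled in 4 normoxia replicates and in 4 replicates held at 0.5% O2 for 16 h, a condition called hypoxia below. No altered gene and no drug treatment is named for either group, and the medium held penicillin and streptomycin. A single cell line stands for the tumour type.

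The stress response takes its name from ATF4, a basic leucine zipper (bZIP) transcription factor. When the kinases PERK, GCN2, PKR or HRI phosphorylate the translation factor eIF2alpha, most protein synthesis slows while the ATF4 mRNA is translated better, because short upstream reading frames in its leader then let ribosomes reach the main one. ATF4 with partners of the ATF and C/EBP families activates genes for amino acid supply and redox balance, and under lasting stress also DDIT3, whose product CHOP is linked to cell death. Since ATF4 and ATF5 are controlled largely at translation, an mRNA level does not report how much of these proteins is made. Severe low oxygen is a known trigger of eIF2alpha phosphorylation.

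The deposited table gives 1 FPKM value per condition, made by the authors over the replicates of that condition. FPKM is by definition a fragment count corrected for the length of the transcript and for the number of fragments mapped in the library. How the authors' run scaled the libraries against each other was not analysed here. With 1 value per condition, the spread between replicates is unknown here and no difference below has a replicate check or a p-value. Neighbours in any order of levels cannot be said to differ. Changes are log2((hypoxia FPKM + 0.1)/(normoxia FPKM + 0.1)), with FPKM summed over the listed transcripts of a gene, and a gene is said to be past the limit when it differed by at least 1.5-fold. In bulk RNA, fewer cells that make a transcript and less of it per cell cannot be told apart. Of 12 squamous epithelial markers, 10 were listed, without KRT14 and PKP1. KRT5 had 398 FPKM in normoxia and 442 in hypoxia, and TP63 had 42.8 and 44.6. Of the 9 that averaged 0.5 FPKM or more, KRT15 was higher (5.80 to 10.2 FPKM, log2 change 0.81) and KRT6A lower (5.10 to 3.26, -0.63) past the limit. Of 16 fibroblast, leukocyte and endothelial markers 5 were listed, the highest being the endothelial cadherin CDH5 at 4.78 FPKM in normoxia and 2.83 in hypoxia and the macrophage marker CD68 at 2.36 and 2.86, with LUM, COL3A1 and CD14 below 0.14 FPKM in both conditions. The part of such signal in the results was not tested. Why a gene was not listed is not known here, so an unlisted marker cannot be taken as absent.

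Among the 10 genes, DDIT4 was higher in hypoxia past the limit, and CHAC1, ATF4 and DDIT3 were lower past it. The other 6 genes lay below 0 on the log2 scale but within the limit. Of the 12106 genes that averaged 0.5 FPKM or more, 9.95% were higher and 11.2% were lower past the limit, and 56.4% had a log2 change below 0. The median log2 change of the 10 genes was -0.45, beside -0.07 for all genes. All 10 genes reached the mean of 0.5 FPKM, CHAC1 only through its normoxia value. The FPKM column of hypoxia had a smaller sum than that of normoxia. The hypoxia response genes LDHA, PGK1 and ENO1 were not listed, and the part of unlisted genes in this difference was not tested. Scaling the columns to equal sums moved every log2 change up by at most 0.23. After this scaling, 1 of the 10 genes was higher and 1 lower past the limit, and over all genes the counts went from 1204 higher and 1361 lower to 2278 higher and 611 lower.

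**Figure D1:**
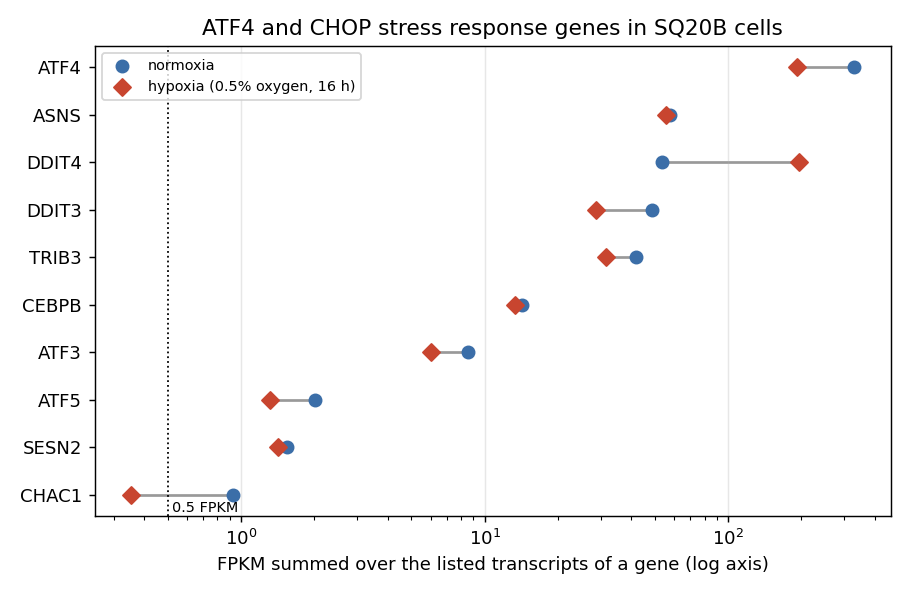
FPKM of the 10 genes on a log axis, 1 circle for the authors' normoxia value and 1 diamond for their hypoxia value, ordered by the level in normoxia; the dotted line marks 0.5 FPKM. DDIT4 is the gene whose diamond lies to the right of its circle, at 195 against 53.7 FPKM, and CHAC1 crosses 0.5 FPKM from 0.929 to 0.353.

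ATF4, the factor at the head of the response, was by far the most abundant of the 10 transcripts in normoxia, with 330 FPKM, 5.72 times the next one. In hypoxia its level was 191 FPKM, a log2 change of -0.79 and 1.73-fold lower. Of all genes, 5.34% had a lower log2 change, although 97.1% still had a lower level in hypoxia than ATF4. The gene lies on chromosome 22 of GRCh37 (39915700 to 39918688, plus strand). Scaling to equal columns gave -0.56, just within the limit.

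The ATF4 promoter is shown because it holds a core of the hypoxia response element, the letters ACGTG or GCGTG that HIF binds, while the mRNA was lower in hypoxia. It is printed 5′ to 3′ from 250 bases before to 50 bases after a RefSeq transcription start (chr22:39916314-39916613, GRCh37, plus strand), with matches on either strand in capitals. The first capitals read the core on both strands, overlapping by all but 1 base, at -82 and -81, and the last match starts at 44.

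ATF4: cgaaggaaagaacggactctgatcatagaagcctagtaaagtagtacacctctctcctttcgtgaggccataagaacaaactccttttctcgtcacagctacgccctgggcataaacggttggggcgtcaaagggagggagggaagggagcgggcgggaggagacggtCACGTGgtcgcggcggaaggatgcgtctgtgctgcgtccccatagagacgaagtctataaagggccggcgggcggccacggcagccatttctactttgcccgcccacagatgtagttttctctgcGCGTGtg

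DDIT3, which encodes the pro-apoptotic bZIP factor CHOP, had 48.6 FPKM in normoxia and 28.6 FPKM in hypoxia. Its log2 change was -0.76, or 1.70-fold lower, close to that of ATF4, and 5.86% of all genes lay below it. The gene lies on the minus strand of chromosome 12 (57910371 to 57915520). There it overlaps the methionyl-tRNA synthetase gene MARS1 on the plus strand by 982 bases, and the table gives both genes 1 common locus. At its other end it overlaps MBD6, also on the plus strand, by 1028 bases, with 0.352 FPKM in normoxia against 0.294 in hypoxia. The annotation also places the protein-coding gene ENSG00000285133 on the same strand as DDIT3, with an overlap of 2769 bases. That gene was not analysed here. MARS1 itself had 54.6 FPKM in normoxia against 40.3 in hypoxia (log2 change -0.44). The libraries were stranded, but whether strand was used in the quantification is not given in the sources used here, so reads of the overlap may have been shared. Scaling to equal columns gave -0.54 for DDIT3, within the limit.

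The DDIT3 promoter is shown for comparison with that of ATF4, since both genes were lower by a like amount (chr12:57914248-57914547, GRCh37, minus strand, capitals as before). It held 1 core, at -91.

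DDIT3: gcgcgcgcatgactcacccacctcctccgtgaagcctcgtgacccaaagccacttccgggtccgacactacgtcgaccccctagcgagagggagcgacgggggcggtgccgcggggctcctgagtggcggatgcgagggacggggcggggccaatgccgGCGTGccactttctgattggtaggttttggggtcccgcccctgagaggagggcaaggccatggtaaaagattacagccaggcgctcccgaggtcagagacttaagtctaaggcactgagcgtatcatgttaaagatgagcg

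ATF5, a bZIP factor linked to the mitochondrial stress response and likewise controlled at translation, had 2.01 FPKM in normoxia and 1.31 FPKM in hypoxia. Its log2 change of -0.58 lay just within the limit of 0.585, and adding 0.01 in place of 0.1 gave -0.61, past it. The gene, on chromosome 19 (50431959 to 50437192, plus strand), overlaps NUP62 on the opposite strand by 1063 bases and shares a locus with it in the table. NUP62, a nuclear pore gene, had 10.9 FPKM in normoxia against 9.14 in hypoxia (log2 change -0.26). The annotation also places IL4I1 there, and the protein-coding gene ENSG00000269179 on the opposite strand, with an overlap of 5234 bases. Neither was analysed here. As for DDIT3, reads of these overlaps may have been shared.

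ATF3, a bZIP factor induced by many stresses, had 8.52 FPKM in normoxia against 6.005 in hypoxia (log2 change -0.50). CEBPB, a C/EBP factor that can pair with ATF4 and CHOP, was nearly level, at 14.2 FPKM in normoxia against 13.3 in hypoxia (log2 change -0.10). All 5 bZIP genes among the 10 thus had lower values in hypoxia as deposited. For CEBPB this turned into a higher value after scaling to equal sums (0.13), while ATF3 stayed at -0.28. CEBPB, on chromosome 20 (48807367 to 48809205), overlaps the antisense gene CEBPB-AS1 by 669 bases, which was not analysed here.

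**Figure D2:**
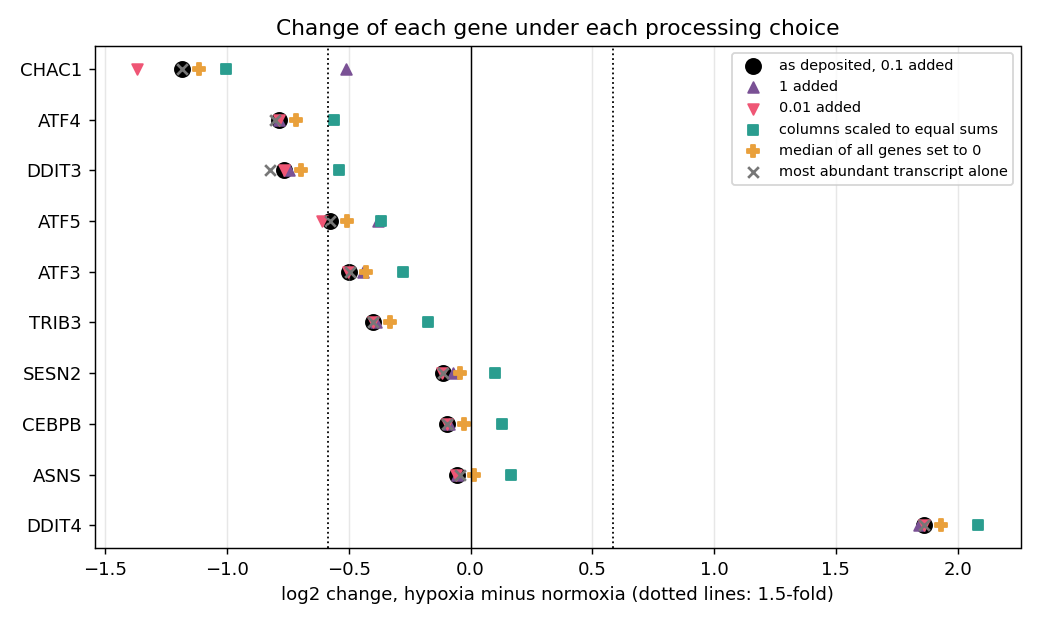
Log2 change of each gene (hypoxia minus normoxia), 1 row per gene from the lowest at the top, with 1 symbol for each processing choice; dotted lines mark 1.5-fold. DDIT4 lies between 1.84 and 2.09 under all of them, whereas ASNS, CEBPB and SESN2 lie on both sides of 0.

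TRIB3, a pseudokinase that ATF4 and CHOP induce and that in turn restrains them, had 41.7 FPKM in normoxia and 31.6 FPKM in hypoxia. Its log2 change was -0.40, or 1.32-fold lower, within the limit. CHAC1, which breaks down glutathione and is among the most responsive targets of ATF4, was the least abundant of the 10, with 0.929 FPKM in normoxia and 0.353 in hypoxia. That is a log2 change of -1.18, the lowest of the group, and 1.45% of all genes lay below it. At this level the added constant decides the size: with 1 in place of 0.1 the change was -0.51, within the limit, and with 0.01 it was -1.37.

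ASNS, which makes asparagine and is a classical ATF4 target, was level, at 57.6 FPKM in normoxia against 55.4 in hypoxia (log2 change -0.06). It thus ranked after DDIT4 and ATF4 in hypoxia. The annotation places the long noncoding RNA gene ENSG00000284707 on the same strand as ASNS, with an overlap of 20855 bases, and it was not analysed here. SESN2, a leucine sensor that holds mTORC1 in check, had 1.55 FPKM in normoxia and 1.42 in hypoxia (-0.11). Both lay near the median of all genes, with 51.2% of genes below ASNS and 46.0% below SESN2 in log2 change. Their sign depended on the scaling: equal columns gave 0.17 for ASNS and 0.10 for SESN2, and setting the median of all genes to 0 gave 0.01 for ASNS.

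ATF4 acts on many targets through a C/EBP-ATF response element, searched here as TGATGNAA on both strands. Matches were found in the RefSeq promoters of ATF3, ASNS and CHAC1, that is in 3 of the 10 genes, beside 4.46% of 27305 genes and 3.62% of their 35116 promoters of 300 bases. The 60 bases around each match are shown, with the match in capitals, because these promoters carry the same element while their genes differed in log2 change (-0.06 for ASNS, -0.50 for ATF3 and -1.18 for CHAC1). In ASNS it starts at -68 (chr7:97501755-97501814, GRCh37, minus strand), in ATF3 at -191 (chr1:212738532-212738591, plus strand) and in CHAC1 at -209, on the opposite strand (chr15:41245434-41245493, plus strand shown).

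ASNS: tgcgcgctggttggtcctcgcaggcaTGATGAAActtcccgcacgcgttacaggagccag

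ATF3: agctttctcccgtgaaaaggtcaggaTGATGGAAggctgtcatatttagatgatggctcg

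CHAC1: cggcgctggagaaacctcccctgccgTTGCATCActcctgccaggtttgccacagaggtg

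The other 7 genes had no match to these letters within their windows, which says nothing of elements elsewhere in the genes.

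DDIT4, also known as REDD1, inhibits mTORC1 through the TSC complex and is a known target of HIF as well as of ATF4. Its level was 53.7 FPKM in normoxia and 195 FPKM in hypoxia, an increase of 141 FPKM. The log2 change was 1.86, or 3.63-fold, and 99.3% of all genes lay below it. In normoxia DDIT4 came after ATF4 and ASNS among the 10 genes, and in hypoxia its FPKM was 1.02 times that of ATF4. It lay past the limit under every alternative, with log2 changes from 1.84 to 2.09, and past 2-fold as well. Among 19 listed genes of the hypoxia response it would rank above 6, for instance PDK1 (1.73) and ADM (1.55), and below the others, such as BNIP3 (2.83).

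The DDIT4 promoter is shown because DDIT4 was the gene with a higher level in hypoxia. It lies at chr10:74033432-74033731 (GRCh37, plus strand), and its matches to ACGTG or GCGTG, in capitals, start at -219, -125, -53 and 26.

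DDIT4: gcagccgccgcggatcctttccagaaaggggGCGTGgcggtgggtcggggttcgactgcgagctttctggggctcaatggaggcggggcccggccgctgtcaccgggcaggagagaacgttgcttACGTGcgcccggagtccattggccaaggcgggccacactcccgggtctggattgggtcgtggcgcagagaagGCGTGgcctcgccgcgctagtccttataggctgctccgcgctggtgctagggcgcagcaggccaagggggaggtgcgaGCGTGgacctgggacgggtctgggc

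At least 1 core was found in promoters of 7 of the 10 genes, beside 52.4% of all genes and 48.4% of all promoters, and at least 4 were found in 4.40% of all promoters. TRIB3 held more than DDIT4, with 6 matches in each of its promoters, and its level was lower in hypoxia. Its promoters overlap and hold the same 6 matches, of which those at -13, -9 and -5 of the first overlap each other. At least 6 matches were found in 0.923% of all promoters. The GC content of the windows of the 10 genes ranged from 46.3% to 77.0%, with 69.7% for DDIT4. It was highest in promoters of TRIB3 and CEBPB, against a median of 58.7% for all promoters. The part of base composition in these counts was not tested. No promoter of the 10 genes matched the ER stress response element, which 0.0769% of all promoters did.

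**Figure D3:**
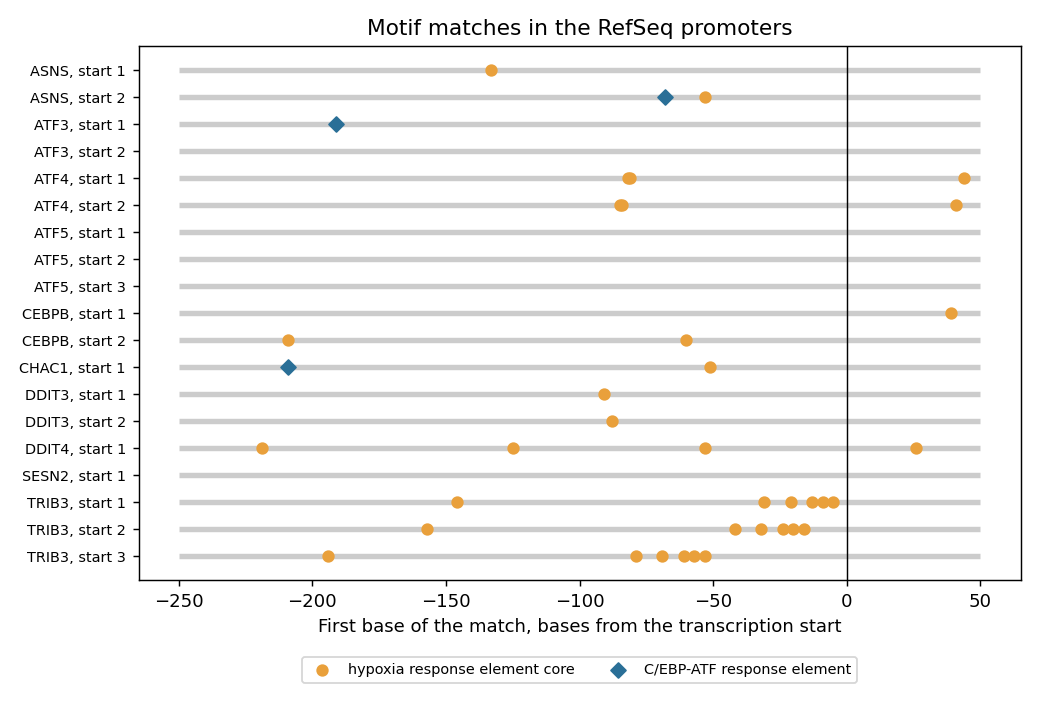
Positions of motif matches in the 19 RefSeq promoters of the 10 genes, in bases from the transcription start (from -250 to 50), 1 row per start; circles are hypoxia response element cores and diamonds C/EBP-ATF response elements. DDIT4 has 4 circles, each TRIB3 start 6, and diamonds appear in 1 start each of ASNS, ATF3 and CHAC1.

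At the level of single transcripts, 16 of the 19 had a mean of at least 0.5 FPKM. Of these, 1 was higher and 4 were lower past 1.5-fold, where over all 18190 transcripts at this level 10.5% were higher and 14.3% were lower. The 4 lower ones were NM_182810 of ATF4, NM_004083 and NM_001195056 of DDIT3, and the single transcript of CHAC1. The genes ATF5, DDIT4, TRIB3, SESN2, CHAC1 and CEBPB had 1 listed transcript each, so that their values above are those of the transcript.

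ATF4 was carried almost wholly by NM_182810, with 325 FPKM in normoxia and 186 FPKM in hypoxia, which was 98.5% and 97.6% of the summed FPKM. NM_001675 had 4.81 FPKM in normoxia against 4.54 in hypoxia, and its log2 change was -0.08 beside -0.80 for NM_182810. How reads are divided between such similar transcripts is an estimate of Cufflinks, and its error is not known here.

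For DDIT3, 4 transcripts were listed and all were lower in hypoxia. NM_004083 went from 33.5 to 18.9 FPKM (log2 change -0.82), NM_001195056 from 9.86 to 6.10 (-0.68), NM_001195057 from 4.79 to 3.17 (-0.58) and NM_001195055 from 0.484 to 0.434 (-0.13). The share of NM_004083 was 68.9% in normoxia and 66.0% in hypoxia, so the make-up of DDIT3 was nearly the same in both conditions.

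ATF3 consisted mainly of NM_001030287, with 8.27 FPKM in normoxia and 5.83 in hypoxia and 97.1% and 97.2% of the sum, while NM_001206486 stayed below 0.3 FPKM. ASNS had 5 listed transcripts, led by NM_001673 with 48.0 FPKM in normoxia and 46.5 in hypoxia (83.3% and 84.0% of the sum). The next, NM_001178077, had 7.22 and 6.50 FPKM. The log2 changes of the 4 ASNS transcripts above 0.5 FPKM lay between -0.18 and -0.02, and the low NM_001178076 had 0.311 FPKM in normoxia against 0.422 in hypoxia.

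**Figure D4:**
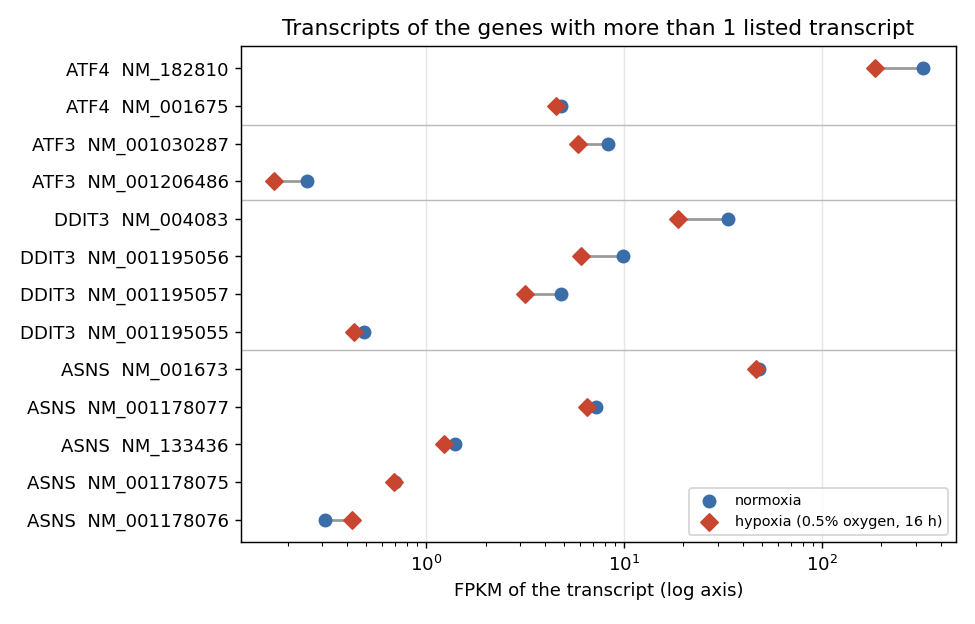
FPKM of each listed transcript of ATF4, ATF3, DDIT3 and ASNS on a log axis, circles for normoxia and diamonds for hypoxia. NM_182810 of ATF4 goes from 325 to 186 FPKM and the DDIT3 transcripts lie in the same order in both conditions.

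Genes around the 10 were described by lists of names. Of 23 genes for amino acid synthesis and transport that ATF4 is known to activate, 22 were listed, of which 2 were higher and 3 were lower past the limit, with a median log2 change of -0.11. The lowest was SLC7A11, the cystine importer that feeds glutathione synthesis, with 18.8 FPKM in normoxia and 4.99 in hypoxia (-1.89, 3.71-fold lower). PYCR1, for proline synthesis, went from 7.64 to 4.55 FPKM (-0.74), and SLC7A5, a leucine transporter, from 20.0 to 13.3 (-0.59). The neutral amino acid transporter SLC1A4 was highest, from 6.60 to 12.3 FPKM (0.89), followed by PHGDH, the entry enzyme of serine synthesis, from 16.4 to 24.8 (0.59), and the glutamine transporter SLC1A5, at 0.47 within the limit. These counts are near the shares of all genes past the limit (9.95% higher and 11.2% lower), and with equal sums they were 4 higher and 1 lower.

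Of the cytosolic aminoacyl-tRNA synthetases, several of which ATF4 activates, a list of 18 genes was read, without those for phenylalanine. None was higher and 4 were lower past the limit, beside 9.95% higher and 11.2% lower over all genes. The median log2 change of the 18 was -0.41. With equal sums 1 was higher and 1 lower, and at 2-fold none was lower. VARS1 was lowest, from 4.02 to 2.098 FPKM (-0.91), followed by GARS1 from 110 to 65.8 (-0.74) and HARS1 from 42.7 to 27.1 (-0.66). AARS1 (0.12) and QARS1 (0.05) were among those above 0.

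Of 20 stress and cell death targets of ATF4 and CHOP, 17 had a mean of at least 0.5 FPKM. Past the limit, 7 of these were higher and 2 were lower, beside 9.95% higher and 11.2% lower over all genes. The median log2 change of the 17 was 0.46. VLDLR, a lipoprotein receptor that HIF is also known to induce, went from 0.356 to 3.13 FPKM (2.82) and reached the mean of 0.5 only through hypoxia. KLHL24 went from 5.15 to 13.4 FPKM (1.36) and the secreted factor STC2 from 18.9 to 41.2 (1.12). GDF15, a stress cytokine, was lowest, from 7.17 to 3.57 FPKM (-0.99), then GADD45A, from 19.5 to 11.0 (-0.81). CEBPG, a C/EBP partner of ATF4, had -0.47. The list was assembled from known targets, with earlier results of these data known. Some of its genes stand in other lists too. ERO1A (1.00), which is among the 7 higher, is also counted in the list of the hypoxia response.

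**Figure D5:**
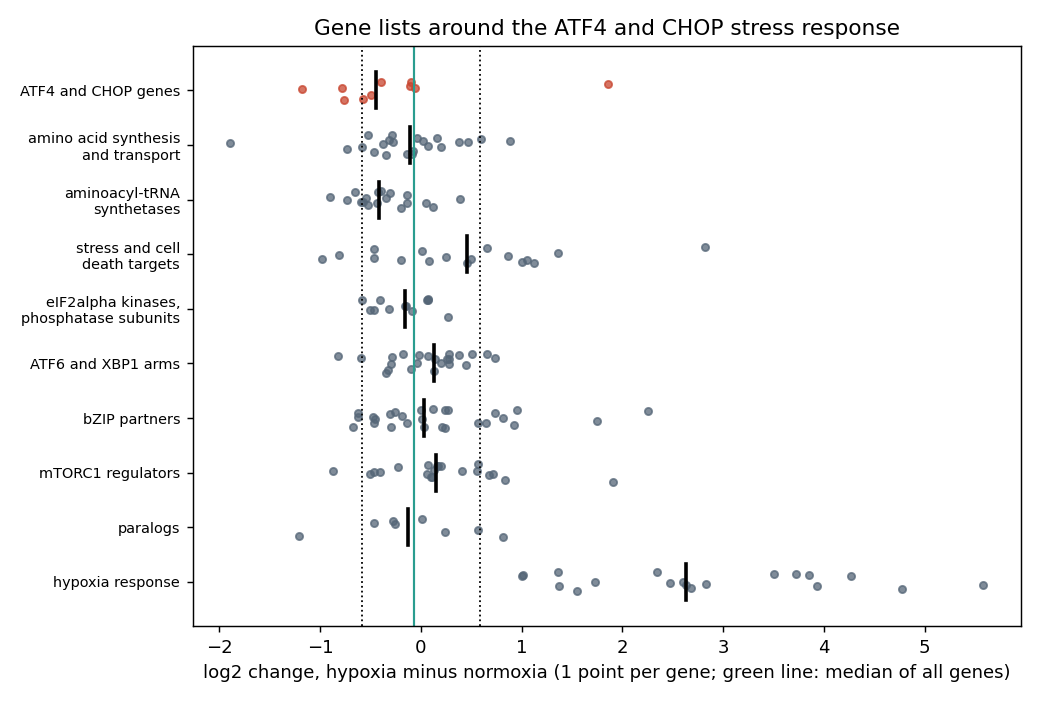
Log2 change (hypoxia minus normoxia) of each gene with a mean of at least 0.5 FPKM in 10 lists, 1 point per gene, spread vertically for legibility; black bars are list medians, the green line is the median of all genes (-0.07) and dotted lines mark 1.5-fold. The ATF4 and CHOP genes, in red, have a median of -0.45 with DDIT4 alone on the right, and the hypoxia response genes a median of 2.63.

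Upstream of ATF4, 12 kinases, phosphatase subunits and related genes of eIF2alpha were listed, with a median log2 change of -0.16. EIF2S1, which encodes eIF2alpha itself, was lower past the limit, from 136 to 90.2 FPKM (-0.59). It passed narrowly, and lay within the limit with 1 added, with equal sums and with the median of all genes set to 0. Of the kinases, EIF2AK3 (PERK) went from 7.31 to 8.80 FPKM (0.27), EIF2AK1 (HRI) from 22.6 to 23.5 (0.06), EIF2AK2 (PKR) from 58.7 to 55.2 (-0.09) and EIF2AK4 (GCN2) from 25.5 to 22.8 (-0.16). PPP1R15A, or GADD34, the phosphatase subunit that CHOP and ATF4 induce to end the response, went from 12.6 to 9.08 FPKM (-0.46). PPP1CB had -0.50, and NCK1 and DNAJC3 each had 0.07. The mRNA levels of kinases do not report their activity.

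The relatives of the 10 genes lay on both sides of 0. Of the 8 with a mean of at least 0.5 FPKM, 1 was higher and 1 lower past the limit. Over all genes, 9.95% were higher and 11.2% lower past it. CHAC2, the paralog of CHAC1, was far more abundant than it, with 49.8 FPKM in normoxia and 21.5 in hypoxia, and its log2 change of -1.21 was close to that of CHAC1 without resting on low values. TRIB2 was higher past the limit, from 5.48 to 9.68 FPKM (0.81), whereas TRIB1 had -0.28 and TRIB3 had -0.40. The SESN2 relatives SESN1, from 8.08 to 12.0 FPKM (0.57), and SESN3, from 0.111 to 0.425 (1.32, below the FPKM limit), lay above 0. Of the C/EBP genes, CEBPA had -0.26, CEBPD 0.24 and CEBPG -0.47, and the ATF3 relative JDP2 had 0.01.

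Genes of the HIF-driven hypoxia response were read from the same columns, from a list chosen with earlier results of these data known. Of its 22 genes 19 were listed, without LDHA, PGK1 and ENO1. All 19 were higher past the limit, as were 9.95% of all genes, and their median log2 change was 2.63. NDRG1 (5.58), CA9 (4.77) and SLC2A3 (4.27) were highest, and ERO1A, an oxidase of endoplasmic reticulum folding, was lowest with 1.00. Of the 10 stress response genes, DDIT4, which was not on this list, was the member above the lowest of these changes.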

How the data were processed

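Human SQ20B cells in normoxia or hypoxia (0.5% O2, 16 h), 4 replicates each, were grouped by their source labels. The treatment text of the labels is the same for both groups. Per the labels and methods, the authors sequenced poly(A)-selected stranded libraries, aligned reads with STAR 2.3.0.1 to hg19 and ran Cufflinks 2.1.1 with RefSeq annotation and standard parameters. The deposited FPKM values are the authors' and number 1 per condition, so replicate spread, depth and read counts were not analysed here and no test or interval was computed. The other 4 columns hold the authors' fold change, test statistic, p-value and q-value for the same comparison, and were not used.

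RefSeq identifiers were paired with symbols through RefSeq's GRCh38.p14 annotation (24293 of 24812, 97.9%), used for names only. A gene's transcripts were summed, 0.1 was added before the log2 ratio, and genes or transcripts with a mean below 0.5 FPKM were left out of counts. The constant understates changes of low genes. Gene positions are from GENCODE 44 on GRCh37. Promoter sequences are RefSeq's of GRCh38.p14, and each of the 19 matched GRCh37 exactly once on its chromosome, which gave the printed coordinates. The members and lists were chosen with earlier results of these data known. Named were all members and their transcripts, every listed paralog, and the 3 highest and 3 lowest genes of each other list, of which 1 is not reported here. Other genes named for levels or overlaps were chosen after their values were seen. A planned comparison of the proteins was not made, since no protein sequences were used here. Alternatives were other constants (1 and 0.01), filters, scalings, a 2-fold limit and the most abundant transcript alone. Python 3.11.15, numpy 2.4.6, pandas 2.3.3 and matplotlib 3.10.9 were used.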

Additional observations from a re-analysis of the deposited data

How the results depend on the processing

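No paired analysis was possible because each condition has 1 value over its replicates, and leaving out replicates could not be run for the same reason. Of the 10 genes' log2 changes, DDIT4 stayed higher and CHAC1, ATF4, DDIT3, ATF5, ATF3 and TRIB3 stayed lower under every constant and scaling and with the most abundant transcript alone. With columns scaled to equal sums ASNS (0.17), CEBPB (0.13) and SESN2 (0.10) changed sign, as did ASNS (0.012) with the median of all genes set to 0. The count of genes of the group lower past the limit, 3 as deposited, was 1 with equal sums and 1 at 2-fold, and that of their transcripts, 4 as deposited, was 2 with equal sums and 1 at 2-fold. Over all genes, 719 were higher with 1 added, 2278 were higher and 611 lower with equal sums, and 388 were higher and 317 lower at 2-fold. Over all transcripts, 1051 were higher and 1635 lower with 1 added, 3132 were higher without the filter, 3517 were higher and 1313 lower with equal sums, and 673 were higher and 671 lower at 2-fold.

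The smaller lists moved as follows, where main counts are those of the text. With 1 added, the amino acid list had 1 higher, the eIF2alpha list 0 lower and the mTORC1 list 2 higher. The mTORC1 list had 1 higher with a mean of at least 1 FPKM, and the paralogs had 2 higher without the filter, with a median of 0.0078. With equal sums, medians changed sign for the amino acid list (0.11), the eIF2alpha list (0.070), the paralogs (0.093) and all genes (0.15). Counts were then 4 higher and 1 lower for the amino acid list, 1 and 1 for the synthetases, 0 lower for eIF2alpha, 5 and 1 for the ATF6 and XBP1 arms, 0 lower for the bZIP partners, 7 higher for mTORC1 and 2 higher for the paralogs. With the median set to 0, eIF2alpha had 0 lower, the ATF6 and XBP1 arms 1, the bZIP partners 1, and the paralogs 2 higher. At 2-fold, the amino acid list had 0 higher and 1 lower, the synthetases, the stress targets and eIF2alpha 0 lower, the ATF6 and XBP1 arms 0 in either direction, the bZIP partners 2 and 0, mTORC1 1 and 0, and the paralogs 0 higher. Equal sums raise all values of hypoxia by construction, and a higher limit counts fewer genes. Depth per sample was not analysed here, so how firmly low values such as those of CHAC1 are known cannot be stated.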

Other observations

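The unfolded protein response has other arms beside ATF4, driven by ATF6 and by XBP1. Of 25 genes of these arms, 23 had a mean of at least 0.5 FPKM, with a median log2 change of 0.13. Past 1.5-fold, 2 were higher and 2 lower, near the shares of all genes (9.95% higher and 11.2% lower). The transducer ATF6B went from 3.75 to 6.31 FPKM (0.74), and SEL1L (0.66) and EDEM1 (0.50), both of endoplasmic reticulum-associated degradation, followed it. The folding factor SDF2L1 went from 4.31 to 2.40 FPKM (-0.82), the factor XBP1 from 195 to 129 (-0.59) and the co-chaperone DNAJB11 from 92.8 to 72.9 (-0.35).

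Among 29 factors read as bZIP partners, 27 had a mean of at least 0.5 FPKM. Their median log2 change was 0.03, and 7 were higher and 3 lower past the limit. Over all genes, 9.95% were higher and 11.2% lower past it. The AP-1 genes FOS, from 0.605 to 3.27 FPKM (2.26), FOSL2, from 5.63 to 19.1 (1.74), and JUNB, from 1.02 to 2.08 (0.96), were highest. The lowest were FOSL1 (-0.67), CREM (-0.63) and CEBPZ (-0.62), which shares the C/EBP name but is no bZIP protein. Of 24 subunits and regulators of mTORC1, the kinase complex that DDIT4 and SESN2 restrain, 20 had a mean of at least 0.5 FPKM. Past the limit, 4 of these were higher and 1 lower (median 0.15). The shares of all genes beside these counts are again 9.95% higher and 11.2% lower. Of the 4 higher regulators, RRAGD, DEPTOR and CASTOR1 (0.379 to 0.663 FPKM) reached the mean of 0.5 FPKM only through hypoxia. With the minimum mean raised to 1 FPKM, 1 regulator was higher. RRAGD, from 0.210 to 1.06 FPKM (1.90), RRAGA, from 21.2 to 37.9 (0.84), and DEPTOR, from 0.357 to 0.649 (0.71), were highest, and SEH1L (-0.88), TBC1D7 (-0.51) and MLST8 (-0.46) lowest.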
